A study of Mus musculus with 15 samples.

Results

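The subunits of mitochondrial oxidative phosphorylation were followed in mouse induced pluripotent stem cells (iPSC) and in the smooth muscle lineage derived from them. Members were all probe sets whose gene symbol begins as those of the nuclear-encoded subunits do (Nduf followed by a, b, c, s or v and a number, Sdha to Sdhd, Uqcr, Cox4 to Cox8, and Atp5). The rule found 77 of the 25206 probe sets, and it used no measured value. They comprised 32 of complex I, 4 of complex II, 7 of complex III, 19 of complex IV with Ndufa4 and its paralog Ndufa4l2, 12 of complex V and 3 pseudogenes. The rule also covers 12 protein-coding genes that have no probe set named here, and these were not analysed here.

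Total RNA of 15 samples was profiled on Affymetrix Mouse Gene 2.0 ST arrays, in 5 groups of 3. The cells carry Acta2hrGFP, in which activity of the smooth muscle actin gene Acta2 drives a green fluorescent protein (GFP). The groups were undifferentiated iPSC at day 0, mesodermal progenitors sorted at day 5 as Kdr+ (Flk1+, a VEGF receptor), GFP- and GFP+ cells sorted at day 13 as candidate smooth muscle cells, and primary GFP+ smooth muscle cells of the aorta as the positive control. The cultured groups share the sample numbers 3, 5 and 6, and the aortic samples are numbered 1, 2 and 3. All cultures come from 1 reporter line, so the samples do not show how lines differ, and the triplicates are labelled as biological. The age of the mice and any pooling of animals are not among the labels used here. The p-values therefore measure only the spread between these samples, and the 3 arrays per group limit the precision of every value.

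Oxidative phosphorylation makes most of the ATP of respiring cells. Complexes I and II pass electrons from NADH and succinate to ubiquinone, complex III passes them on to cytochrome c, and complex IV reduces oxygen with them. Complexes I, III and IV pump protons as they do so, and complex V, the ATP synthase, uses the return of the protons through its membrane part (Fo) to drive its catalytic head (F1). Pluripotent cells are known for a high rate of glycolysis, and the switch towards respiration during differentiation is one of their best-studied metabolic changes. Several subunits of complex IV exist as a ubiquitous form and as tissue isoforms that are best known from muscle, lung or testis.

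All values are log2 expression values (RMA), and differences between them are log2 differences. A gene was said to rise or fall where limma gave an adjusted p under 0.05 over all 25206 probe sets. Levels were not compared between probe sets. The files hold no detection calls, so the 10 members whose mean lay below the median level of all probe sets (4.28) are not shown to lie above background. In bulk samples, fewer cells of a type and less RNA per cell cannot be told apart. The 75th percentile of the samples lay between 5.93 and 6.20. The list of 5 pluripotency markers averaged 6.82 to 6.96 at day 0 and 4.22 or less elsewhere, and the 5 mesoderm markers averaged 8.52 to 8.59 at day 5. The 6 smooth muscle markers averaged 10.84 to 10.91 in the aortic samples, 7.24 to 7.46 in the day 13 GFP+ samples and 6.60 to 6.98 in the GFP- samples. Myh11, the myosin that defines contractile smooth muscle, stood at 10.97 to 11.11 in the aortic samples and at 4.36 to 4.78 in the day 13 GFP+ samples, close to its 3.98 to 4.52 at day 0. The day 13 samples numbered 3 stood apart from numbers 5 and 6 in both sorts: they correlated with them at r = 0.977 to 0.983 across genes, against 0.994 and 0.995 between numbers 5 and 6.

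The promoters of 5 members are shown because the results turn on these genes: Atp5g3, Atp5k and Sdhd rose at day 5 and fell in the GFP+ cells, Uqcrh had the largest rise at day 5, and Cox6b2 had the largest changes of the tissue isoforms. Each sequence is the 250 bases before the RefSeq start of the gene on the strand of the gene, from GRCm38.p6. Capitals mark a match on either strand to the binding motif of NRF1 (GCGC, any base, then TGCGC) in Atp5k and Sdhd, to the ETS core (CCGGAAG) in Sdhd and Uqcrh and to the ERR half-site (TCAAGGTCA) in Atp5g3; the printed bases of Cox6b2 hold none of them. The regions are chr2:73911327-73911576 (minus strand) for Atp5g3, chr5:108434400-108434649 (minus strand) for Atp5k, chr9:50603850-50604099 (minus strand) for Sdhd, chr4:116075071-116075320 (minus strand) for Uqcrh and chr7:4753095-4753344 (minus strand) for Cox6b2.

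Atp5g3: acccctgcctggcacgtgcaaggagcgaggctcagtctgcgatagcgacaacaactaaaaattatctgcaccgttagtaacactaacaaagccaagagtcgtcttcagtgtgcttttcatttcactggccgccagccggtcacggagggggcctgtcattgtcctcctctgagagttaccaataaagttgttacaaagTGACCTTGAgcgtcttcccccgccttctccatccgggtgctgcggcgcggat

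Atp5k: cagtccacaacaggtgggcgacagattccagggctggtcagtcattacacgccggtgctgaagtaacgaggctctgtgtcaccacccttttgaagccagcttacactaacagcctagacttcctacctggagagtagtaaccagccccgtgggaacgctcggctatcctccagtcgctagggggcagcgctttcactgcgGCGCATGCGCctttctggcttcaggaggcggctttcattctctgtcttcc

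Sdhd: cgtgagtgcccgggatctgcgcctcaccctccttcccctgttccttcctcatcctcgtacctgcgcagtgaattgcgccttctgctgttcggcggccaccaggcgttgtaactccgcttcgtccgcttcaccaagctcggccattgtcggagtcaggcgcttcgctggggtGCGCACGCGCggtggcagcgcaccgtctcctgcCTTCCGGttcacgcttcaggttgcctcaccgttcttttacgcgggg

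Uqcrh: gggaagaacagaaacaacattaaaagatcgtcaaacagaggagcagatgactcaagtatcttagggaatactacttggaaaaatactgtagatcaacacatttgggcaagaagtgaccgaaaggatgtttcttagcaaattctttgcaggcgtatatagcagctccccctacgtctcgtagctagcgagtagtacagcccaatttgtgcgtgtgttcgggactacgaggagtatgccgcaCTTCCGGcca

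Cox6b2: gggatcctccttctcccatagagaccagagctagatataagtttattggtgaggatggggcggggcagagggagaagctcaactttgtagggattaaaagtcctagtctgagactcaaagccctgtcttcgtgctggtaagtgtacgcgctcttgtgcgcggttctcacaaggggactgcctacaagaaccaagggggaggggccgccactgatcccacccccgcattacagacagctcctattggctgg

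Promoters were listed for 60 members and for 17708 genes on the array, each as a window of 300 bases with the 50 bases after the start. An NRF1 motif lay in 21.7% of the members' windows and in 7.21% of all windows. A YY1 motif (AANATGGC) lay in 26.7% of the members' windows and in 7.50% of all. The ETS core lay in 25% against 12.9%. The ERR half-site was found in Atp5g3 and Sdhd, 3.33% of the members' windows, and in 0.373% of all. Both strands were searched, each motif was counted on its own whether or not matches of different motifs overlapped, and a window with several matches counted once. Of the 28 members with a window that fell in the day 13 GFP+ cells, 8 held an NRF1 motif (28.6%), 7 a YY1 motif (25%), 6 the ETS core (21.4%) and 2 the ERR half-site (7.14%). A match is a description of letters and not a site.

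Across the 15 samples, in the deposited scaling, the members were highest around day 5 and lowest in the aorta. The 75th percentile of all probe sets also differed, with 6.16 to 6.20 at day 5 and 5.929 to 6.045 in the aortic samples. For the 67 members above the median level the median change was 0.22 at day 5 and -0.19 in the aorta against the GFP+ cells. Over all probe sets of that level it was 0.07 and -0.18. Both changes of the members moved with the scaling, as given below. Of the 77 members, 39 had their highest group mean at day 5 and 21 at day 0, and 40 had their lowest mean in the aortic cells. The median deviation from their own means was taken over the 66 members that are neither tissue isoforms nor pseudogenes. It was 0.08 to 0.23 at day 0 and 0.32 to 0.40 at day 5. It was -0.10 to 0.31 in the GFP- samples, -0.24 to -0.02 in the GFP+ samples and -0.51 to -0.16 in the aortic samples. The GFP- value of 0.31 belongs to sample 3, while samples 5 and 6 stood at -0.10 and -0.07. By this measure the day 5 samples lay above all others, and the aortic range overlapped that of the GFP+ samples. The complexes did not move alike: complex V stood at 0.45 to 0.51 at day 5 and -0.76 to -0.53 in the aorta, whereas complex I stood at 0.24 to 0.31 and -0.43 to 0.01. Complex III had already been high at day 0 (0.28 to 0.38, against 0.36 to 0.42 at day 5). Without a call in any of the 5 comparisons were 23 members, among them Cox4i1, Cox6a1 and Cox6c of complex IV and all 3 pseudogenes.

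**Figure D1:**
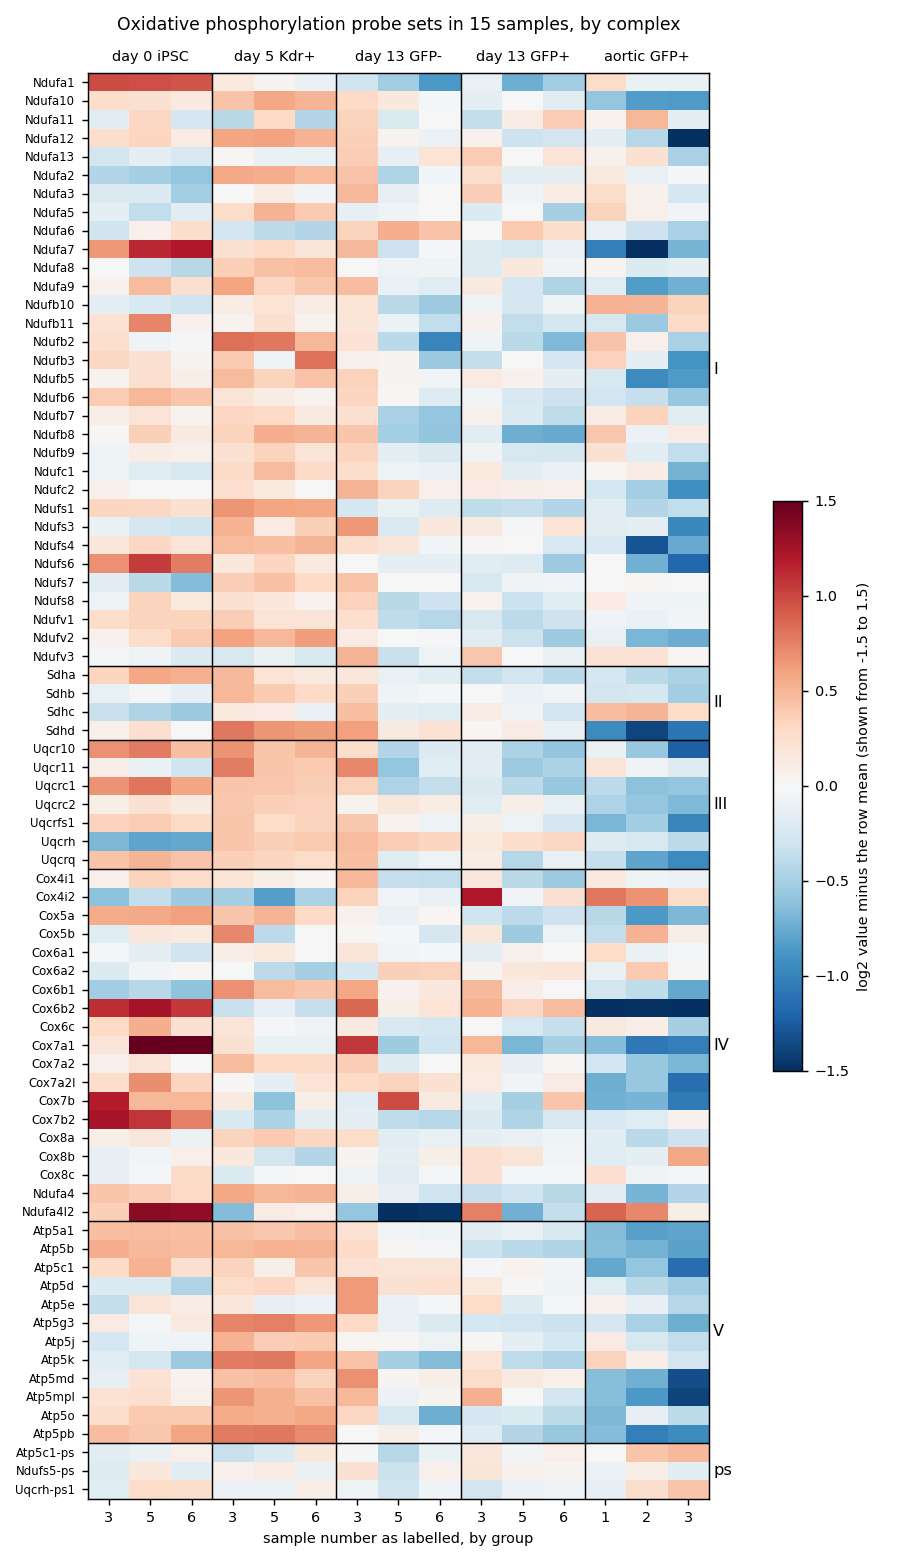
The log2 value of each of the 77 members (rows, by complex, ps for pseudogenes) minus its mean over the 15 samples (columns, by group and sample number), shown from -1.5 (blue) to 1.5 (red). The day 5 columns are mostly red and the aortic columns mostly blue, with 39 members highest at day 5 and 40 lowest in the aorta.

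**Figure D2:**
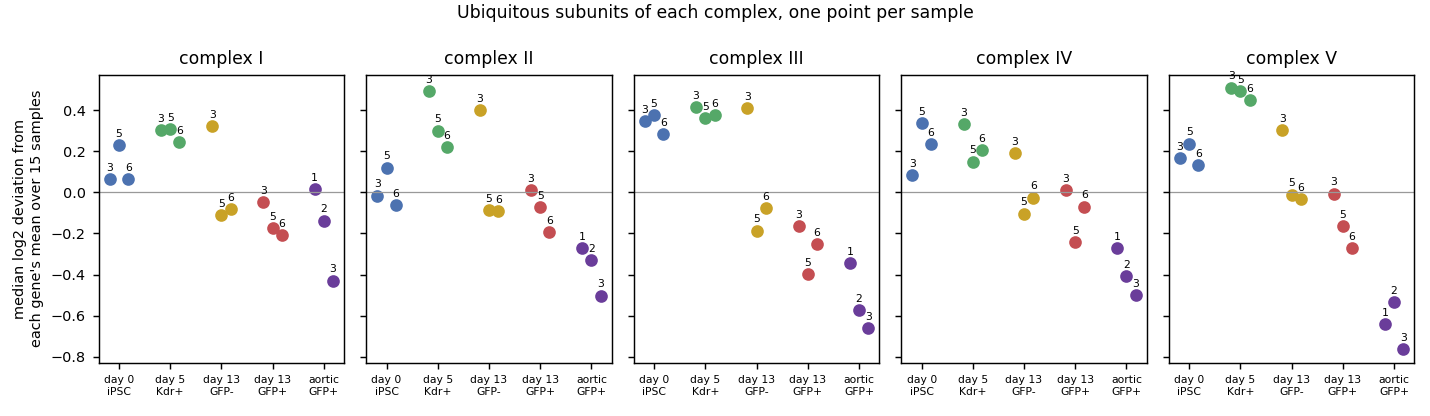
Median deviation (log2) of the subunits of each complex, without tissue isoforms, from their means over the 15 samples, with a point per sample labelled by its number. Complex V falls from 0.45 to 0.51 at day 5 to -0.76 to -0.53 in the aorta, and GFP- sample 3 lies above GFP- samples 5 and 6 in every complex.

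Between day 0 and the Kdr+ cells of day 5, which have become mesoderm, some subunits of complexes I, II and V rose. A small set of complex I and IV subunits fell. Of 77 members 15 rose (19.5%) and 7 fell (9.09%), where 14.9% of all probe sets rose and 13.9% fell (28.8% in either direction). The median change of the members was 0.16, against -0.01 over all probe sets. Most members are well expressed, and of the 12603 probe sets above the median level 26.6% rose and 18.8% fell, against 22.4% and 7.46% of the 67 members there. The share that rose therefore lay near that of all probe sets and below that of probe sets of similar level. The values of the groups did not overlap for 49 of the 77 members (63.6%), against 46% of all probe sets. Above the median level these shares lay near each other, at 70.1% of the members and 67.6% of all probe sets.

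In complex III, Uqcrh (Entrez Gene 66576), the hinge protein that helps dock cytochrome c, stood at 8.31, 8.19 and 8.21 at day 0 and at 9.39, 9.34 and 9.37 at day 5. The difference of 1.13 (SE 0.105, 2.19-fold, limma adjusted p = 5.34e-07) was the largest rise of any member, and its printed promoter carries an ETS core. The other 6 members of complex III did not pass the test, and their changes ran from -0.29 for Uqcrc1 to 0.62 for Uqcr11.

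In complex V, 4 of 12 members rose (33.3%, against 26.6% of all probe sets above the median level). Atp5k (Entrez Gene 11958), the subunit e that takes part in dimers of the synthase, stood at 7.96, 7.88 and 7.60 at day 0 and 8.92, 8.94 and 8.73 at day 5 (difference 1.05, SE 0.252, adjusted p = 0.00442). Atp5g3 (Entrez Gene 228033) encodes subunit c of the proton-driven ring and rose from 8.40, 8.26 and 8.43 to 9.01, 9.03 and 8.93 (0.63, SE 0.145, adjusted p = 0.00327). The other risers were Atp5j, of the stalk, and Atp5d, of the head. For all 7 subunits of the Fo part and stalk the day 5 values lay wholly above those of day 0, of which 3 passed the test. In the catalytic head, Atp5a1 and Atp5b, the alpha and beta subunits, differed by -0.03 and 0.01.

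In complex II, which also belongs to the citric acid cycle, Sdhb, Sdhc and Sdhd rose by 0.47, 0.51 and 0.58 (adjusted p = 0.0102, 0.0283 and 0.00647). Sdhd, a membrane anchor, went from 7.78, 7.95 and 7.70 to 8.49, 8.36 and 8.32. The flavoprotein Sdha differed by -0.20 and did not pass the test.

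In complex I, 6 of 32 members rose (18.8%) and 3 fell (9.38%). The share that rose lay below the 26.6% of all probe sets above the median level. Among the risers were the core iron-sulfur subunit Ndufs7 (9.47, 9.24 and 8.99 at day 0, 10.01, 10.08 and 9.94 at day 5; 0.78, adjusted p = 0.000563) and the accessory subunits Ndufa2 (1.04, adjusted p = 0.000319), Ndufa8 (0.67, adjusted p = 0.000851) and Ndufa5 (0.62, adjusted p = 0.00347). Ndufa1, an accessory subunit of the membrane arm encoded on the X chromosome, fell from 7.86, 7.84 and 7.81 to 7.02, 6.91 and 6.78 (-0.93, SE 0.173, adjusted p = 0.000565). Ndufa7 fell by 0.76 and Ndufs6 by 0.62 (adjusted p = 0.0156 and 0.0451).

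In complex IV, Cox6b1 rose and 4 members fell, of which 3 are tissue isoforms described further on. Cox6b1 stood at 7.21, 7.32 and 7.13 at day 0 and 8.41, 8.21 and 8.14 at day 5 (1.04, SE 0.172, adjusted p = 0.000211). Cox7b fell by 0.86 (adjusted p = 0.0445), from 4.33, 3.65 and 3.64 to 3.28, 2.53 and 3.23. Both of its group means lie below the median level of the array and are not shown above background. The falls rest on few samples: without day 0 sample 5, day 0 sample 6 or day 5 sample 6 only 3 members fell, and without day 5 sample 5 only 4. Ndufs6 missed the threshold when any of the 6 samples was left out (adjusted p = 0.0545 to 0.168), Cox7b for every sample but day 5 sample 3 (0.0551 to 0.211) and with each of the other 3 scalings (0.0693 to 0.0711), and Ndufa7 for day 0 samples 5 and 6 and day 5 sample 6 (0.0518 to 0.0736).

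**Figure D3:**
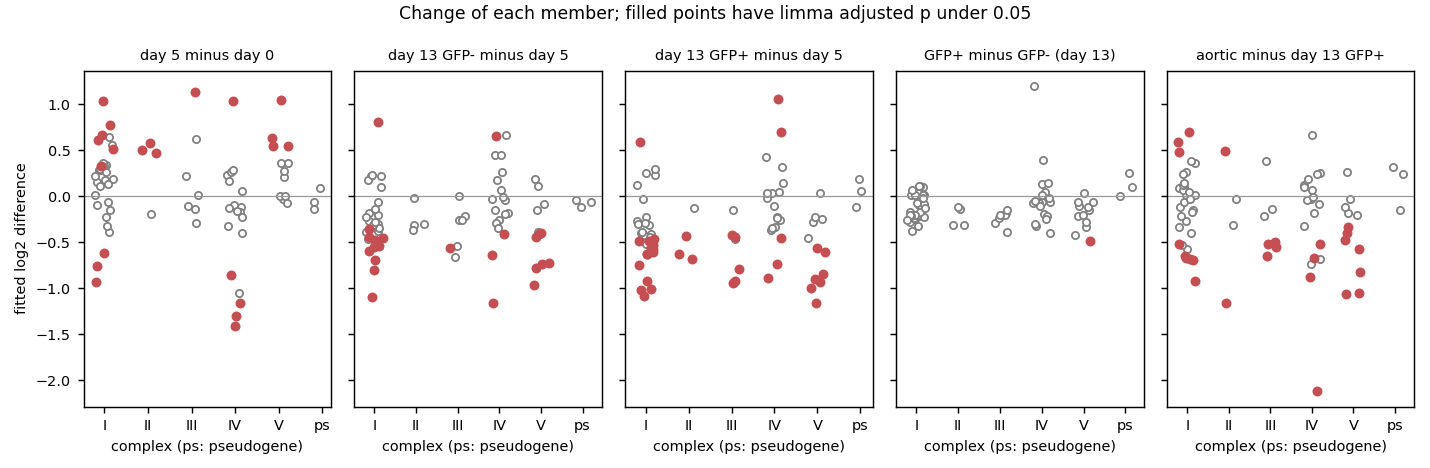
Fitted log2 difference of each member (points) in the 5 comparisons, by complex (ps for pseudogenes); filled points passed the test (limma adjusted p under 0.05). Filled points lie mostly above 0 for day 5 minus day 0 (15 of 22) and mostly below 0 for both day 13 sorts minus day 5 (21 of 23 and 32 of 35).

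In the GFP- cells of day 13, some subunits of complex V and complex I were lower than at day 5. Of 77 members 21 fell (27.3%) and 2 rose (2.6%), where 13.9% of all probe sets fell and 12% rose (26% in either direction). Above the median level 31.3% of the 67 members fell, against 24.5% of all probe sets there, of which 20.6% rose, and the median change of the members was -0.28 against -0.03 over all probe sets. In the Fo part and stalk of complex V, 5 of 7 members fell. In complex I 10 of 32 fell (31.2%), and the groups did not overlap for 40.6% of the 32. The median deviation of complex I was 0.322 in GFP- sample 3, above all 3 day 5 samples (0.245 to 0.307). It was -0.112 and -0.080 in GFP- samples 5 and 6. The groups did not overlap for 30 of the 77 members (39%), against 39.6% of all probe sets. Above the median level the share was lower for the members, at 44.8% against 60% of all probe sets.

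Ndufs1 (Entrez Gene 227197), the largest core iron-sulfur subunit of complex I, stood at 7.98, 7.91 and 7.90 at day 5 and at 7.05, 7.21 and 7.12 in the GFP- samples (-0.80, SE 0.108, adjusted p = 3.38e-05). Atp5pb, subunit b of the peripheral stalk, went from 9.06, 9.07 and 8.996 to 8.29, 8.37 and 8.25 (-0.74, SE 0.127, adjusted p = 0.000338). In both genes all 3 GFP- samples lay together, far below day 5. Atp5k behaved differently: GFP- sample 3 at 8.57 stayed near the day 5 values of 8.92, 8.94 and 8.73, while samples 5 and 6 stood at 7.64 and 7.49 (-0.96, adjusted p = 0.00878). Ndufb2, an accessory subunit of the membrane arm, also varied among the GFP- samples, with 7.25, 6.62 and 6.04 against 7.85, 7.83 and 7.53 (-1.10, adjusted p = 0.00565). Ndufa4, a subunit of complex IV that was long assigned to complex I, fell by 0.64 (adjusted p = 0.002).

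Ndufa6, an accessory subunit of the LYR family, went the other way, from 7.38, 7.27 and 7.22 to 7.998, 8.21 and 8.09 (0.81, SE 0.155, adjusted p = 0.000865). The count of 23 called members changed with single samples: it was 14 without day 5 sample 3 or 5, 13 without day 5 sample 6 or GFP- sample 5, 11 without GFP- sample 6, and 36 (33 lower) without both day 13 samples numbered 3. Of the genes named, Atp5k missed the threshold without GFP- sample 6 (adjusted p = 0.0545), and Ndufa1, which fell by 0.59, without GFP- sample 6 or day 5 sample 3 or 5 (0.05 to 0.103).

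The smooth muscle reporter is active in the GFP+ cells of day 13. In these cells some subunits of each of the 5 complexes were lower than at day 5. Both sorts share the same day 5 samples as their baseline. Of 77 members 32 fell (41.6%) and 3 rose (3.9%), where 16.9% of all probe sets fell and 14.3% rose (31.2% in either direction). Above the median level the shares that fell were 47.8% of the 67 members and 30.2% of all probe sets, of which 23.7% rose. The groups did not overlap for 50 of the 77 members (64.9%), against 45.3% of all probe sets. At that level these shares lay near each other, at 73.1% of the members and 69.3% of all probe sets. The median change was -0.41, against 0.00 over all probe sets. After cyclic loess scaling 20 members fell and the median was -0.23, where 14.7% of all probe sets fell. The count called lay between 28 and 34 when a sample was left out.

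By role, the falls covered 3 of 4 members of complex II, 5 of 7 of complex III and 7 of 12 of complex V. In complex I they covered 4 of 6 core and 10 of 26 accessory subunits. In complex IV without its tissue isoforms 3 of 11 fell (27.3%), near the 30.2% of all probe sets above the median level. The groups did not overlap for 36.4% of these 11, against 69.3% of all probe sets at that level. Atp5pb had the largest fall, to 8.09, 7.84 and 7.72 from its day 5 values of 9.06, 9.07 and 8.996 (-1.16, SE 0.127, 2.23-fold, adjusted p = 2.63e-06). Atp5g3, whose promoter holds the ERR half-site printed above, went from 9.01, 9.03 and 8.93 to 8.01, 7.99 and 7.96 (-1.001, SE 0.145, adjusted p = 4.54e-05). The 3 GFP+ samples of Atp5g3 lay close together, below all of day 5. Atp5b, the catalytic beta subunit, fell from 11.26, 11.28 and 11.28 to 10.45, 10.36 and 10.31 (-0.90, SE 0.110, adjusted p = 8.66e-06), and the subunit Atp5o, which joins head and stalk, fell by 0.84 (adjusted p = 0.00379).

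In complex I, Ndufs1 went from 7.98, 7.91 and 7.90 to 6.93, 6.97 and 6.87 (-1.01, SE 0.108, adjusted p = 1.99e-06). Of the flavoprotein arm that accepts electrons from NADH, Ndufv2 fell by 0.92 and Ndufv1 by 0.57 (adjusted p = 0.000266 and 0.00734). Ndufb8 and Ndufb2, accessory subunits of the membrane arm, fell by 1.01 and 1.09 (adjusted p = 0.00294 and 0.00484). Ndufa6 again rose, by 0.59 (7.67, 8.06 and 7.93 against 7.38, 7.27 and 7.22; adjusted p = 0.00683).

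In complex III the small subunits Uqcr10 and Uqcr11 fell by 0.95 and 0.92 (adjusted p = 0.00518 and 0.00866), and the core protein Uqcrc1 by 0.79 (8.83, 8.82 and 8.79 to 8.20, 8.02 and 7.85; adjusted p = 0.00197). Uqcrh stood at 9.12, 9.24 and 9.29, below all day 5 samples, and its difference of -0.15 (95% interval -0.37 to 0.07) missed the threshold (adjusted p = 0.366). In complex II, Sdha, Sdhb and Sdhd fell by 0.63, 0.43 and 0.68 (adjusted p = 0.00115, 0.0153 and 0.00181). In complex IV, Ndufa4 fell by 0.89 and Cox5a, which forms part of the matrix side, by 0.74 (adjusted p = 8.39e-05 and 0.000167), whereas Cox4i1 differed by -0.37 and did not pass (adjusted p = 0.25).

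Between the GFP+ and GFP- cells of day 13, which the sort separates by the reporter, a single member passed the test. Atp5b was lower in the GFP+ samples, with 10.45, 10.36 and 10.31 against 11.06, 10.78 and 10.74, and the groups did not overlap (-0.49, SE 0.111, 1.40-fold, limma adjusted p = 0.0184). None of the 77 members was higher, where 2.02% of all probe sets were higher and 2.52% lower (4.53% in either direction; 3.55% and 4.28% above the median level). The groups did not overlap for 16 members (20.8%), against 19.5% of all probe sets. Above the median level the shares were 23.9% of the members and 26.7% of all probe sets. Of the members 57 had differences below 0, and the median was -0.13 against 0.01 over all probe sets; without GFP- sample 3 the median was 0.015. The call of Atp5b was lost without GFP- sample 3 (adjusted p = 0.065), without GFP+ sample 5 (0.0648) or 6 (0.0839), after cyclic loess (0.0772), in a fit on these groups alone (0.122), and without both samples numbered 3 (0.0648); without GFP+ sample 3, 2 members were lower.

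Equal sample numbers at day 13 deviated together, with r = 0.397 to 0.597 across genes. Unequal numbers 5 and 6 also did so across the sorts (r = 0.278 and 0.345), while number 3 ran against both (-0.5 to -0.419). With the number as a block 2 members passed, 1 higher and 1 lower. Of all probe sets 3.39% were then higher and 3.75% lower (7.13% in either direction). Atp5b was again lower (adjusted p = 0.00936). Ndufa4l2 was higher by 1.20 with the block (adjusted p = 0.017) and missed the threshold without it (SE 0.4, adjusted p = 0.123). Its values were 7.07, 5.60 and 5.96 in the GFP+ samples 3, 5 and 6 and 5.73, 4.44 and 4.85 in the GFP- samples of the same numbers, so each GFP+ sample lay above its GFP- partner although the groups overlapped. The endoderm and epithelium list of 6 genes averaged 6.67 to 6.77 in the GFP- samples and 4.58 to 4.92 in the GFP+ samples, and the 5 endothelial markers averaged 5.36 to 5.47 against 4.39 to 4.58. The part of such cells in these differences was not tested.

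The aortic cells, the native smooth muscle of the study, were set against the GFP+ cells of day 13. The share of members that fell lay near that of probe sets of similar level. Of 77 members 22 fell (28.6%) and 4 rose (5.19%), where 19.5% of all probe sets fell and 17.7% rose (37.2% in either direction). Above the median level 32.8% of the 67 members fell, against 35.3% of all probe sets there, of which 19.2% rose. The groups did not overlap for 31 members (40.3%), against 44.9% of all probe sets. Above the median level the shares were 44.8% of the members and 60.8% of all probe sets. The median change of the members was -0.15, against 0.07 over all probe sets and -0.18 over those above the median level. The direction depended on the scaling: after cyclic loess 17 members rose and 9 fell, and the median was 0.07, where 17.4% of all probe sets rose and 16.1% fell.

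Complexes III and V held many of the falls, with 4 of 7 and 7 of 12 members. The head of complex V fell in 4 of 5 members, among them the gamma subunit Atp5c1, with 5.39, 5.47 and 5.37 in the GFP+ samples and 4.65, 4.83 and 4.27 in the aortic samples (-0.82, SE 0.142, adjusted p = 0.000232). Atp5md (Dapit) and Atp5mpl, small proteins attached to Fo, fell by 1.06 and 1.05 (adjusted p = 0.000346 and 0.00101). In complex II the membrane anchors parted: Sdhd fell from 7.73, 7.82 and 7.58 to 6.74, 6.32 and 6.60 (-1.16, SE 0.147, adjusted p = 1.2e-05), while Sdhc rose from 8.37, 8.20 and 7.98 to 8.72, 8.77 and 8.53 (0.49, adjusted p = 0.0271). Cox7a2l, which joins complexes III and IV into supercomplexes, fell by 0.88 to 4.12, 4.29 and 3.72 (adjusted p = 0.000304).

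In complex I, 6 accessory subunits fell and 3 rose, and none of the 6 core subunits passed. Ndufa7 fell by 0.92 and Ndufb5 by 0.69 (adjusted p = 0.00365 and 0.00386). Ndufb10 rose from 6.62, 6.43 and 6.62 to 7.21, 7.20 and 7.02 (0.59, SE 0.159, adjusted p = 0.00805), and Ndufb8 and Ndufa1 rose by 0.70 and 0.48 (adjusted p = 0.0291 and 0.0377). These rises were less firm: Ndufb8, Ndufa1 and Sdhc each missed the threshold when GFP+ sample 5 or 6 or aortic sample 1 was left out, Ndufb8 also without aortic sample 3 and Sdhc without aortic sample 2 (adjusted p = 0.0598 to 0.178), and all 3 missed it with median centring (0.051 to 0.0811). The count of members that rose was then 2 without GFP+ sample 5 or aortic sample 1, 1 without GFP+ sample 6 and 9 without both day 13 samples numbered 3. Ndufb5 missed it after cyclic loess (adjusted p = 0.0529). Lists of other cell types were also higher in the aortic samples: the 5 brown adipocyte markers averaged 4.004 to 4.38 against 3.10 to 3.42 in the GFP+ samples with Ucp1 at 2.81 to 3.35, the 5 adipocyte markers 4.43 to 4.93 against 3.07 to 3.23, and the 5 endothelial markers 5.92 to 6.39 against 4.39 to 4.58. The 4 leukocyte genes measured averaged 4.52 to 4.99 against 3.57 to 3.62, and the 2 erythroid genes 2.94 to 3.74 against 2.14 to 2.36. The 7 skeletal muscle markers overlapped, with 4.19 to 4.30 against 4.10 to 4.29. Their part in the changes of the members was not tested.

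Of the tissue isoforms of complex IV, Cox6b2, known from testis, changed most. It stood at 7.49, 7.64 and 7.45 at day 0, at 6.05, 6.27 and 6.03 at day 5, at 7.25, 6.47 and 6.59 in the GFP- samples, at 6.91, 6.69 and 6.84 in the GFP+ samples and at 4.36, 4.91 and 4.81 in the aorta. It was thus highest at day 0, lower at day 5, higher again at day 13 and lowest in the aortic cells, and the day 13 sorts overlapped each other but not day 5, day 0 or the aorta. The fall at day 5 was 1.41 (SE 0.186, 2.65-fold, adjusted p = 2.32e-05), the rise to the GFP+ cells 0.69 (adjusted p = 0.00817) and the fall to the aorta 2.12 (SE 0.186, 4.35-fold, adjusted p = 1.96e-07). The rise to the GFP- cells, 0.65 (adjusted p = 0.015), was 0.41 without GFP- sample 3 (adjusted p = 0.0693) and missed the threshold also without day 5 sample 3 or 6 (0.0536 and 0.0579).

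The ubiquitous Cox6b1 took another course, and the difference between the paralogs was tested on their difference within each sample. Over 45 such tests on 9 pairs, adjusted together with all probe sets, Cox6b2 minus Cox6b1 changed by -2.44 at day 5 (SE 0.196, adjusted p = 1.11e-07), by 0.91 and 1.02 in the GFP- and GFP+ cells (adjusted p = 0.00223 and 0.00063) and by -1.45 in the aorta (adjusted p = 2.25e-05). At day 5 the isoforms went in opposite directions, Cox6b2 down and Cox6b1 up. In the aorta both fell, Cox6b1 by 0.67 (limma adjusted p = 0.00583). Under 15 alternatives that change of Cox6b1 ranged from -0.77 to -0.306, and 1 of them ended its call (adjusted p = 0.164).

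Cox7b2, another isoform known from testis, was measured at 3.09, 2.92 and 2.60 at day 0 and between 1.38 and 1.92 in the other 12 samples, with a fall of 1.31 at day 5 (SE 0.148, adjusted p = 4.63e-06). All values lie below the median level of the array. Cox7b2 minus Cox7b changed by 0.92 from the GFP+ to the aortic cells (limma adjusted p = 0.022). Cox7b also averaged below that level in every group, so this is not read as an isoform change. Cox8c, the testis isoform of subunit 8, stood between 2.38 and 2.89 in all samples and had no call. The 5 germ cell markers averaged 4.54 to 5.06 at day 0 and 2.63 to 3.13 elsewhere, among them Ddx4, a helicase of germ cells, at 5.21 and 2.41 in the means of day 0 and day 5. Cyct, the testis form of cytochrome c, fell from 4.55, 5.69 and 5.53 to 2.08, 2.17 and 2.26 (-3.09, SE 0.211, adjusted p = 1.83e-08). Slc25a31, the testis form of the ATP/ADP carrier, fell by 0.62 (adjusted p = 0.00124). The mean of Cyct at day 5 and both means of Slc25a31 lie below that median level, so the sizes of these falls are uncertain.

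The isoforms of heart and skeletal muscle showed no call in any of the 5 comparisons. Cox6a2 stood between 3.27 and 4.16 and Cox8b between 2.26 and 3.28 over the 15 samples, both below the median level. Cox7a1 varied widely within groups: 5.17, 6.48 and 6.49 at day 0, 5.21, 4.89 and 4.89 at day 5, 6.04, 4.45 and 4.69 in the GFP- samples, 5.48, 4.30 and 4.49 in the GFP+ samples and 4.34, 3.91 and 3.96 in the aorta. Its fall of 1.05 at day 5 missed the threshold (adjusted p = 0.0697), while Cox7a1 minus Cox7a2, its ubiquitous paralog, changed by -1.31 (adjusted p = 0.00686). Its difference from Cox7a2l, the other related gene, changed by -0.65 and missed the threshold (adjusted p = 0.269). In both day 13 sorts sample 3 was the highest for Cox7a1. The 7 cardiac markers averaged 4.29 to 5.76 over the day 13 samples and 4.10 to 4.19 in the aorta. Cox8a, the ubiquitous form of subunit 8, fell by 0.45 in the GFP+ cells (adjusted p = 0.0124; 0.169 after cyclic loess). Cox8b and Cox8c were not shown above background, so their differences from Cox8a are not read as isoform changes.

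Cox4i2, the isoform of subunit 4 known from lung and from low oxygen, rose in the GFP+ cells. It stood at 4.56, 4.82 and 4.64 at day 0, 4.67, 4.36 and 4.70 at day 5, 5.51, 5.14 and 5.08 in the GFP- samples, 6.38, 5.14 and 5.40 in the GFP+ samples and 5.97, 5.85 and 5.45 in the aorta. All day 13 and aortic samples lay above all samples of day 0 and day 5. The rise from day 5 was 1.06 in the GFP+ cells (SE 0.249, adjusted p = 0.0032); the difference of 0.67 in the GFP- cells missed the threshold (adjusted p = 0.0633), and the aorta differed from the GFP+ cells by 0.12 (adjusted p = 0.744). Cox4i2 minus Cox4i1 changed by 1.43 (SE 0.179, adjusted p = 1.03e-05) and 0.84 (adjusted p = 0.00189). Between the sorts the pair differed by 0.58 (95% interval 0.20 to 0.97, adjusted p = 0.0862), and between aorta and GFP+ by -0.14 (95% interval -0.52 to 0.24).

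Ndufa4l2, a paralog of Ndufa4 that low oxygen induces, was measured at 6.67, 7.67 and 7.64 at day 0, 5.67, 6.44 and 6.40 at day 5 and 7.19, 7.04 and 6.40 in the aorta, beside its day 13 values given above. It fell by 1.16 at day 5 and by 1.16 again in the GFP- cells (SE 0.4, adjusted p = 0.0395 and 0.043), and differed by 0.04 between the GFP+ cells and day 5. Both falls rest on few samples: at day 5 the call was lost for every sample left out but day 0 sample 3 (adjusted p = 0.0529 to 0.169), and in the GFP- cells without GFP- sample 5 or 6 or day 5 sample 5 or 6 (0.119 to 0.188). Ndufa4l2 minus Ndufa4 changed by -1.33 at day 5 (adjusted p = 0.0188), a call lost without day 0 sample 5 or 6 or day 5 sample 3 (0.081 to 0.0987). Between the sorts it was higher in the GFP+ cells by 1.44 (SE 0.399), with adjusted p = 0.0542, and 0.00924 with the sample number as a block.

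**Figure D4:**
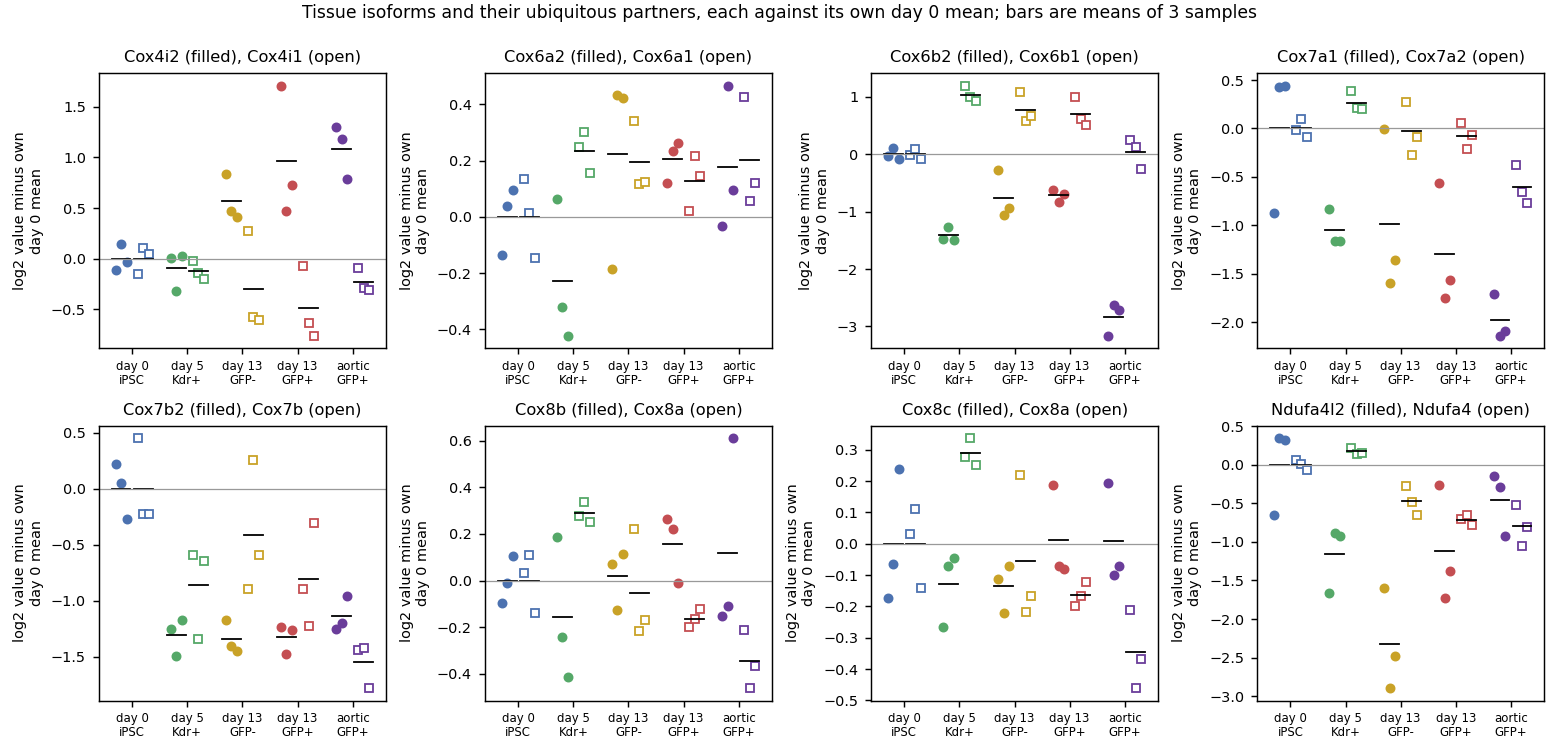
Each tissue isoform (filled circles) and its ubiquitous paralog (open squares) in the 15 samples, as log2 value minus the gene's own mean at day 0; bars are means of 3 samples. Cox6b2 and Cox6b1 part at day 5 (changes of -1.41 and 1.04), and Cox4i2 lies higher in all day 13 and aortic samples than at day 0 and day 5.

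The other genes of the pathway were followed in lists. As a background, among probe sets above the median level 26.6% rose and 18.8% fell at day 5, 20.6% and 24.5% in the GFP- cells, 23.7% and 30.2% in the GFP+ cells, and 19.2% and 35.3% in the aorta. Of 76 mitochondrial ribosomal proteins, which make the subunits encoded by mitochondrial DNA, 31 rose and 3 fell at day 5 (19 rose without day 0 sample 6 and 18 without day 5 sample 5), 44 fell in the GFP- cells, 63 fell in the GFP+ cells (82.9%) and 31 fell and 5 rose in the aorta (19 and 11 after cyclic loess; 2 or 3 rose when GFP+ sample 5 or 6 or aortic sample 1 or 2 was left out). Between the sorts 1 was lower, and 4 were with the day 13 block. The medians were 0.32, -0.56, -0.76 and -0.32. Mrpl20 rose by 1.06 at day 5 and then fell by 1.91 in the GFP+ cells (adjusted p = 0.000487 and 1.15e-06), and Mrpl42 fell by 1.75 (adjusted p = 2.42e-07). Of 48 measured assembly factors 11 rose and 6 fell at day 5, 18 fell and 2 rose in the GFP- cells, 26 fell and 1 rose in the GFP+ cells, and 14 fell and 5 rose in the aorta (12 and 9 after cyclic loess, and 3 rose without aortic sample 1). The aortic share of assembly factors that fell (29.2%) lay below that background, and the share that rose at day 5 (22.9%) near it. Ndufaf4, which helps build complex I, rose by 0.96 at day 5 and fell by 1.69 and 2.04 in the GFP- and GFP+ cells (adjusted p = 0.000851, 4.73e-06 and 4.03e-07).

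Of 13 genes of the citric acid cycle 10 fell and 1 rose in the GFP+ cells against day 5 (median -0.86), with Idh3a, a subunit of the NAD-dependent isocitrate dehydrogenase, at -1.67 (adjusted p = 1.5e-07) and Suclg2 at -1.45 (adjusted p = 2.13e-07). In the GFP- cells 8 fell and 1 rose, and Idh2, the NADP-dependent form, was the gene that rose, by 1.26 (adjusted p = 1.51e-05). At day 5, 4 of the 13 rose (30.8%, against 26.6% of all probe sets above the median level) and 2 fell. When any of the 6 samples was left out, 1 or 2 of the 13 rose. In the aorta 5 rose and 2 fell against the GFP+ cells, and 9 rose and 1 fell after cyclic loess. Of 13 glycolysis genes 9 fell at day 5 and none rose (median -1.33): Pfkp, a phosphofructokinase, fell by 4.29 (adjusted p = 1.08e-08). The separate list of pyruvate entry had 10 measured genes, of which 6 fell and 2 rose at day 5. In it Pdk1, a kinase that shuts pyruvate dehydrogenase, fell at day 5 from 8.73, 8.63 and 8.71 to 5.52, 5.25 and 5.25 (-3.35, SE 0.212, adjusted p = 8.05e-09). Pdk1 stood at 7.94, 7.01 and 7.13 in the GFP- and 7.82, 7.34 and 7.40 in the GFP+ samples. In the aorta it stood at 5.35, 5.02 and 5.53 (-2.22, adjusted p = 5.45e-07). Pdha1 of the same list also fell at day 5, by 1.16 (limma adjusted p = 2.21e-06). Pdk4 fell by 1.52 at day 5 and rose by 2.87 and 1.79 in the GFP- and GFP+ cells. Against day 5, 3 glycolysis genes rose in the GFP- cells (23.1%) and 4 in the GFP+ cells (30.8%), and none fell by limma. These shares lay near the 20.6% and 23.7% of all probe sets above the median level. Without both day 13 samples numbered 3, 3 glycolysis genes rose and 3 fell in the GFP- cells. In the GFP+ cells 4 of them then rose and 4 fell. In the aorta 8 fell (5 after cyclic loess or without GFP+ sample 3).

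Of 16 regulators of mitochondrial biogenesis 3 rose and 3 fell at day 5. Against day 5, 7 fell (43.8%) and 2 rose in the GFP- cells, and 8 fell (50%) and 3 rose in the GFP+ cells. The medians of these 2 comparisons were -0.32 and -0.48. Ppargc1a, the coactivator PGC-1alpha that drives transcription of respiratory genes, rose and had the largest change of this list after day 5. It stood at 1.88, 2.16 and 1.84 at day 5, 6.00, 5.40 and 5.33 in the GFP- samples, 4.46, 3.84 and 3.94 in the GFP+ samples and 5.92, 5.10 and 5.49 in the aorta. At day 0 and day 5 it lay far below the median level of the array and is not shown above background there, so the sizes of its rises are uncertain. The measured rises from day 5 were 3.62 and 2.12 (adjusted p = 1.09e-08 and 1.41e-06), the GFP+ cells were lower than the GFP- cells by 1.496 (SE 0.22, adjusted p = 0.000869), and the aortic cells were higher than the GFP+ cells by 1.42 (adjusted p = 8.34e-05). Its relative Ppargc1b rose at day 5 by 0.93 (adjusted p = 0.000289), and Polg, the polymerase of mitochondrial DNA, rose by 1.57 at day 5 (5.95, 6.20 and 6.20 to 7.68, 7.70 and 7.69) and fell by 1.77 in the GFP+ cells (adjusted p = 1.29e-07 and 3.18e-08). Esrrb, an orphan receptor of the ERR family that belongs to the pluripotency network, fell by 4.51 at day 5 (adjusted p = 3.96e-11), to a level below the median of the array. Of 17 electron carriers and genes of ubiquinone synthesis 8 fell and 2 rose in the GFP+ cells, and 2 fell and 6 rose in the aorta. Cycs, somatic cytochrome c, rose by 1.14 in the aorta (adjusted p = 0.000533), from 3.43, 3.68 and 3.42 to 4.90, 4.43 and 4.62. Its GFP+ values lie below the median level of the array and are not shown above background, so the size of this rise is uncertain. Of 11 carriers, porins and import genes 6 fell in the GFP+ cells and 6 in the aorta (2 after cyclic loess), and the import receptor Tomm70a fell by 1.28 in the GFP+ cells (adjusted p = 3.44e-06). The subunits encoded by mitochondrial DNA were not analysed here.

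**Figure D5:**
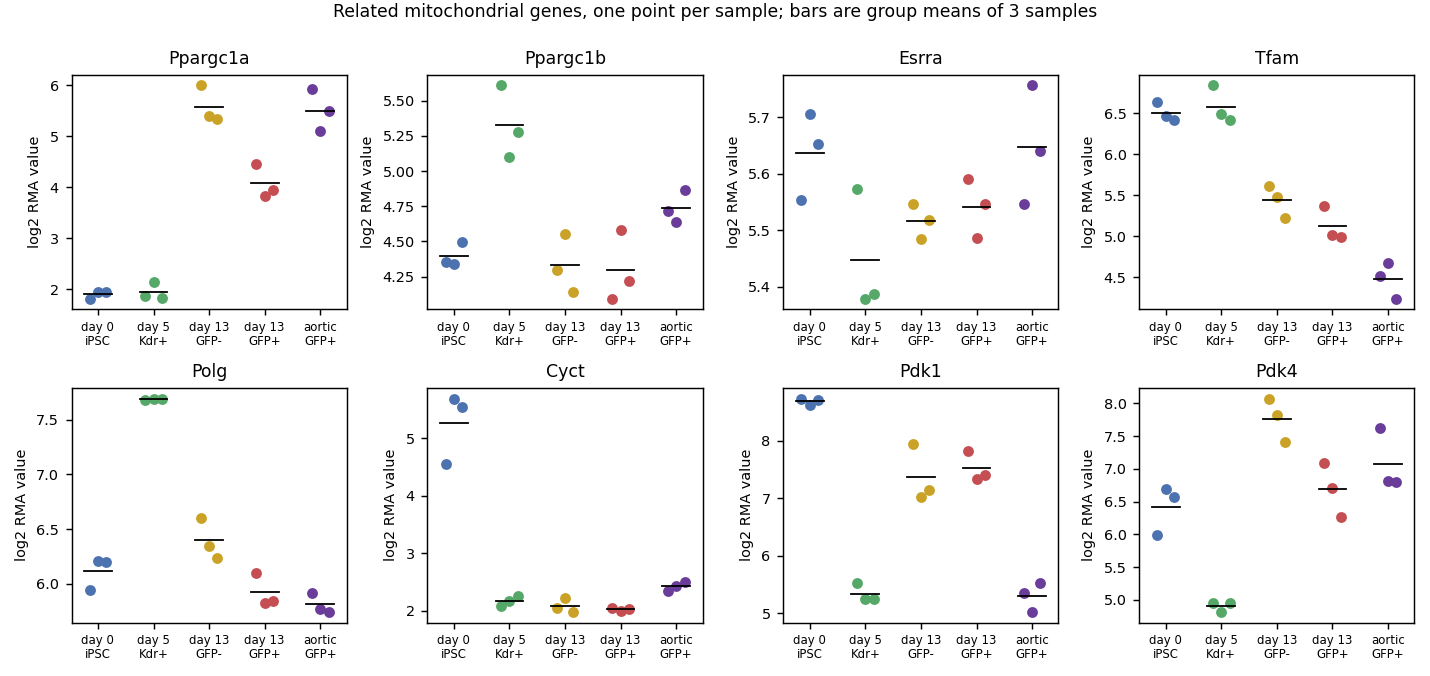
Log2 values of 8 related mitochondrial genes in the 15 samples (points) with group means (bars). Ppargc1a lies between 1.82 and 2.16 at day 0 and day 5 and between 3.84 and 6.00 at day 13, Polg is highest at day 5, and Cyct is 4.55 or more at day 0 only.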

How the data were processed

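The values were log2 expression values deposited by the authors, 1 per probe set and sample, made with RMA (affy 1.36.1, R 2.15.1) per the submitters' processing notes. That the scale is log2 was inferred from the range of the numbers. No source used here names a genome build. RMA corrects background, normalizes by quantiles and summarizes probes, so a change is relative to the whole array. Each probe set carries an Entrez Gene ID; the platform table named 23185 of 25206, and 2021 stayed unnamed. Tied values, where 2 or more samples hold the same number, occurred in 13 members.

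All 15 samples were fitted with a mean per group in limma 3.58.1 (R 4.3.3), with moderated variances (10 residual and 5.09 prior degrees of freedom) and Benjamini-Hochberg adjustment within each of 5 comparisons over all probe sets, at a threshold of 0.05. Errors of differences are standard errors. Paralog pairs were fitted as within-sample differences together with all probe sets (25215 rows). The fit was checked on simulated data. At day 13 equal sample numbers deviated together (r = 0.397 to 0.597 across genes) and elsewhere they did not (-0.091 to 0.079). The block on the number is therefore given for the comparison of the sorts. Unequal numbers 5 and 6 also deviated together there (r = 0.278 and 0.345). Members and lists were chosen with earlier results of these data known. Named were all isoforms of the fixed pairs, per comparison up to 8 members with the highest and 8 with the lowest change among those called whose groups did not overlap, and up to 3 genes per related list; other members are named to complete a group, after their values were seen. Alternatives were 2-group fits, a variance trend, robust moderation, array weights, median centring, repeated quantile normalization, cyclic loess, a filter on low levels, the replicate block and leaving out samples; dropping both day 13 samples numbered 3 was chosen after seeing the data. Promoters came from RefSeq (GRCm38.p6).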

Additional observations from a re-analysis of the deposited data

Results flagged for a closer look

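Atp5b fell from day 5 by 0.90 in the GFP+ cells and by 0.41 in the GFP- cells. The day 5 samples cancel in the difference of these changes, so its test is the comparison of the sorts already given and no separate result: -0.485 (limma adjusted p = 0.0184, and 0.00936 with the sample number as a block). All 3 GFP+ samples (10.31 to 10.45) lay below all 3 GFP- samples (10.74 to 11.06). Under the alternatives the difference ranged from -0.546 to -0.348 and its adjusted p from 0.00241 to 0.122, and 6 of its alternatives ended the call. Groups of 3 are too small for a test of outlying samples.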

How the results depend on the processing

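Direction and side of the threshold held for most values of named genes and pairs: 2269 kept both, 77 lost the call and 86 gained it. Another 104 changed sign with no call on either side, and 3 changed sign with a call on at least 1 side. These 3 came with cyclic loess in the aortic comparison: Cox8a 0.324, Ndufa4 0.336 and the pair Cox8c minus Cox8a -0.495. Cyclic loess moved a sample median by up to 0.151, median centring by 0.106. With it the members' median was 0.021 at day 5, -0.23 in GFP+ against day 5 and 0.07 in the aorta, and 0 members were called between the sorts. Array weights called 35 members at day 5, 51 in GFP- and 5 between the sorts; a fit on only the groups compared called 0 between the sorts. Without both day 13 samples numbered 3, 36 were called in GFP- and 0 between the sorts. Leaving out 1 sample gave 15 to 21 calls at day 5, 11 to 32 in GFP-, 28 to 34 in GFP+, 0 to 2 between the sorts and 21 to 30 in the aorta, with the medians 0.10 to 0.19, -0.43 to -0.22, -0.45 to -0.34, -0.209 to 0.015 and -0.25 to -0.06. The cause of these moves was not tested. With the replicate block over the 12 cultured samples, whose numbers pair only at day 13, 24, 28, 41 and 1 members were called at day 5, in GFP-, in GFP+ and between the sorts; the day 13 replicate block called 2. The block ended the calls of Cox7b and Ndufa4l2 at day 5 and of Ndufa4l2 in GFP-. No paired analysis was possible for the aorta, because its samples are primary cells and no label pairs them with the cultures. Without detection calls, values near the floor of the array carry no bound.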
